A study of Mus musculus with 6 samples.

Results

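The genes described here are 10 that encode the calcium release and uptake machinery of the sarcoplasmic reticulum, chosen by symbol: Ryr2, S100a1, Trdn, Asph, Casq2, Casq1, Hrc, Atp2a2, Pln and Sln. They are 10 of 54532 gene IDs in the deposited table, and all 10 were among the 14149 genes tested, those averaging 0.5 FPKM or more over the 6 libraries (FPKM are fragments per kilobase of gene, scaled to library depth). RNA sequencing was done on heart ventricles of mouse embryos at age E12.5, in 3 control libraries (genotype CTL) and 3 libraries from a conditional knockout of LSD1 (genotype LSD1-KO, sample titles LSD1CKO). LSD1 is the histone demethylase encoded by Kdm1a, and the series title concerns its role in heart development. The labels name no strain, no Cre driver and no recombined cell type, and leave unsaid whether each library is a separate embryo, a litter or a pool. The spread that the p-values measure is that among these 6 samples and may be technical. Kdm1a itself stood at 29.99, 29.7 and 22.8 FPKM in control and at 10.7, 11.8 and 11.0 FPKM in knockout libraries, every knockout library lying below every control (ratio of means 0.405).

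In heart muscle each beat depends on calcium that is held in the sarcoplasmic reticulum, let out through the ryanodine receptor and pumped back by the SERCA pump. The receptor sits in a complex with triadin and junctin, which tether it to calsequestrin, the main calcium buffer of the lumen, while small membrane peptides such as phospholamban and sarcolipin hold the pump back. In the embryonic ventricle this store is still being built, and its proteins are well known from human arrhythmia and heart failure.

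Hrc, which encodes the histidine-rich calcium-binding protein of the lumen, was the 1 member of 10 that passed the test, and it was higher in the knockout (limma on log2(FPKM + 1), Benjamini-Hochberg adjusted p under 0.05 over all 14149 genes). None was called lower. Over all genes tested, 1.91% were called higher and 0.466% lower, 2.37% in all. The groups did not overlap for 6 members: S100a1, Casq2 and Hrc had every knockout library above every control library, and Casq1, Pln and Sln had every knockout library below every control library. Of all genes tested, 11.0% were placed above in this way, 10.4% below and 21.4% either way. An unadjusted p under 0.05 was found for 6 members, against 16.1% of the genes tested. Members were chosen with earlier results of these data known, so counts set beside the shares of all genes do not measure an excess. The median log2 change of the members was -0.05, beside -0.01 for all genes tested.

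**Figure D1:**
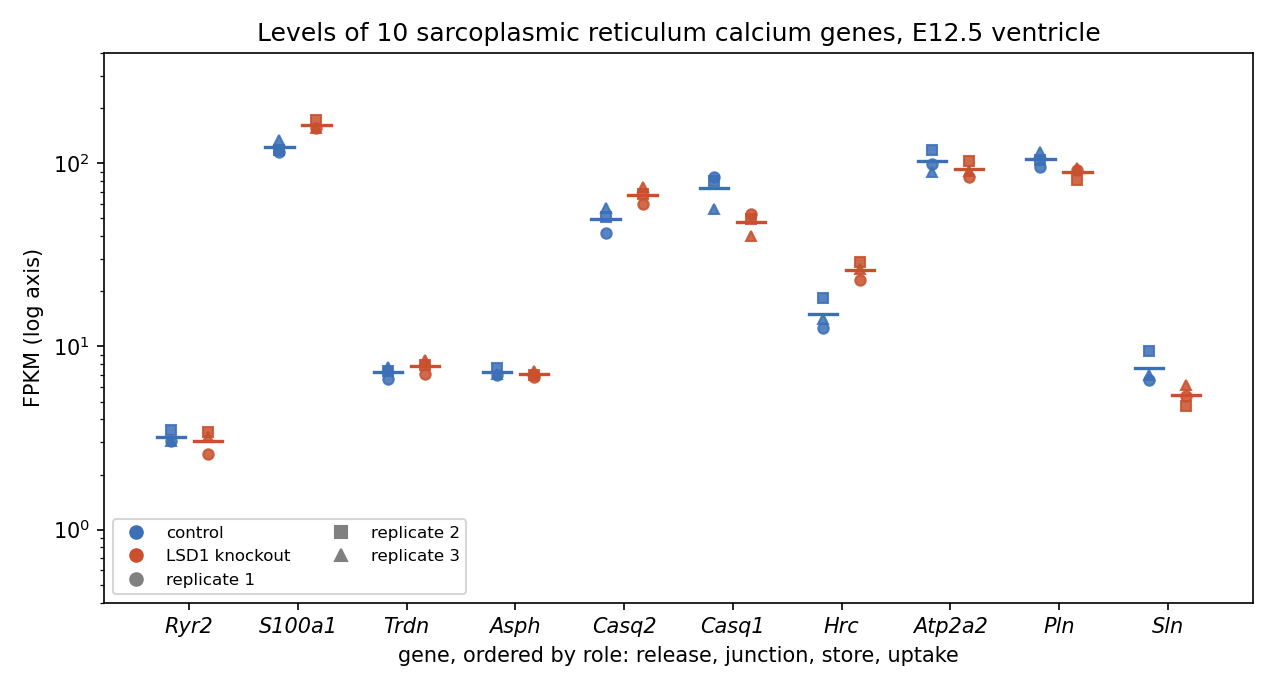
FPKM on a log axis for each of the 10 genes in each library, with the marker giving the replicate number and the horizontal bar the group mean of 3 libraries. The Hrc markers of the 3 knockout libraries, at 23.0 to 28.9 FPKM, all stand above those of the controls, at 12.7 to 18.3 FPKM, whereas the Ryr2, Trdn and Asph markers intermix.

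The promoters of the 4 members with the smallest p-values are shown, as the genes whose RNA level differed most between the groups for its error. Each sequence is the stretch of up to 250 bases before the RefSeq start in build GRCm38.p6, 5′ to 3′ on the gene's strand. It was trimmed so as to hold no GENCODE exon of the gene itself, and exons of other genes were not checked. Those of Hrc (chr7:45335019-45335268, plus strand), Casq2 (chr3:102086165-102086414, plus) and Casq1 (chr1:172219896-172220145, minus) are 250 bases long, and that of S100a1 (chr3:90514393-90514580, minus) is 188. Capitals mark matches, on either strand, to the MEF2 motif, the CArG box of serum response factor, CATTCC (the core bound by TEAD factors), GATAA (that of GATA factors), CAGCTG (an E-box) or TATAAA (the TATA box). The matches do not overlap each other.
Hrc: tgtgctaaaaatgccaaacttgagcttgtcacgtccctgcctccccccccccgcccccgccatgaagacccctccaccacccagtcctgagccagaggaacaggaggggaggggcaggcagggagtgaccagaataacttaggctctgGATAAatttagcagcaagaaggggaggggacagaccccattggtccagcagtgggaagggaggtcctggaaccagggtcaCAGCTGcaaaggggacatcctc
S100a1: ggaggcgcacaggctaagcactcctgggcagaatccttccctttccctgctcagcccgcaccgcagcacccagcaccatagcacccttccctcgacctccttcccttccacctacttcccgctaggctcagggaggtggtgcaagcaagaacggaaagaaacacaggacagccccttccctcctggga
Casq2: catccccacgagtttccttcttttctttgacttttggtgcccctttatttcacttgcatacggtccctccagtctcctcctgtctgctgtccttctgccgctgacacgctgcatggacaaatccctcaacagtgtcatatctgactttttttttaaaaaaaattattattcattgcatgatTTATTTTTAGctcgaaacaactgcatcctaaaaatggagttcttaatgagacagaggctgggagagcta
Casq1: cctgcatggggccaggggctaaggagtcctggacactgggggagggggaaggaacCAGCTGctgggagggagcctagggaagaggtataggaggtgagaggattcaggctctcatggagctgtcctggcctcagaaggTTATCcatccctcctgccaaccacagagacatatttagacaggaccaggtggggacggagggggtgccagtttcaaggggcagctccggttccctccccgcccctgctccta

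The letters of the MEF2 motif stood once in the Casq2 promoter, starting 69 bases before its end, and 2.92% of 32851 RefSeq promoter windows of 250 bases held them. The Hrc and Casq1 windows each held 1 CAGCTG, found in 13% of windows, and 1 GATAA, found in 22.6%. No CArG box (1.47% of windows), CATTCC (12.6%) or TATAAA (12.4%) was present in these 4 windows, and the S100a1 window held no match at all. By base composition the Casq2 window stood apart from the others, with 41.6% G and C against 59.6% to 61.7%, where the median of all windows was 52.4%. These matches describe letters and not sites in use. RefSeq promoter entries were found for 6 of the 10 members.

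Of the members, Ryr2 and the junctional genes Trdn and Asph did not differ between the groups beyond the spread of the libraries. Other genes of release channels and junctions, of which 3 were called higher, are given further below. Ryr2 encodes the calcium release channel of heart muscle and stood at 3.06, 3.51 and 3.06 FPKM in control replicates 1 to 3 and at 2.59, 3.40 and 3.21 FPKM in knockout replicates 1 to 3. Knockout replicate 1 was the lowest library and the other knockout libraries lay within the control range. The log2 change was -0.05 with a 95% interval of -0.28 to 0.18 (adjusted p = 0.847). Its fitted change was slightly above 0 (0.01 and 0.003) after 2 of the rescalings and without knockout replicate 1 (0.03), so no direction is given for Ryr2.

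Trdn encodes triadin, the anchor that links the channel to calsequestrin, and measured 6.67, 7.33 and 7.73 FPKM in control and 7.12, 7.96 and 8.40 FPKM in knockout libraries. The ranges overlapped, and the log2 change of 0.10 had an interval of -0.10 to 0.29 (adjusted p = 0.615). Asph is a single gene that gives rise to junctin, to the related protein junctate and to the aspartyl beta-hydroxylase enzyme of the endoplasmic reticulum. Its level was 7.03, 7.63 and 7.11 FPKM in control and 6.77, 6.95 and 7.37 FPKM in knockout libraries. With 20 annotated transcripts counted together, the junctin part of the Asph signal cannot be read from these values. Its log2 change was -0.04 (interval -0.19 to 0.12, adjusted p = 0.829), and it was 0.04 after rescaling to TPM and 0.03 after rescaling without haemoglobin and mitochondrial genes. Exons of Clvs1 and Gm25677 cover 14.7% of the exon bases of Asph.

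S100a1, a small EF-hand protein of cardiomyocytes that binds both the ryanodine receptor and the SERCA pump, had the highest mean level of the 10 genes. Controls measured 115, 118 and 134 FPKM and knockouts 155, 172 and 156 FPKM. All 3 knockout libraries exceeded the highest control, and the means were 122 ± 10.3 and 161 ± 9.43 FPKM (SD, n = 3 each), a ratio of 1.32. The log2 change of 0.39 (SE 0.08, interval 0.20 to 0.59) missed the threshold, with a limma adjusted p = 0.0616. The gene was called under 5 of 15 alternatives. These were 3 of the 4 rescalings (TPM, quantiles, and without haemoglobin and mitochondrial genes; adjusted p = 0.0327, 0.0366 and 0.0310), the fit without control replicate 3 (0.0300) and voom on recovered reads (0.0181). Relative to the cardiomyocyte markers, the other rescaling, the log2 change was 0.40 with an adjusted p of 0.436. Over all 15 alternatives the adjusted p ran from 0.0181 to that value, and the change was above 0 in each.

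**Figure D2:**
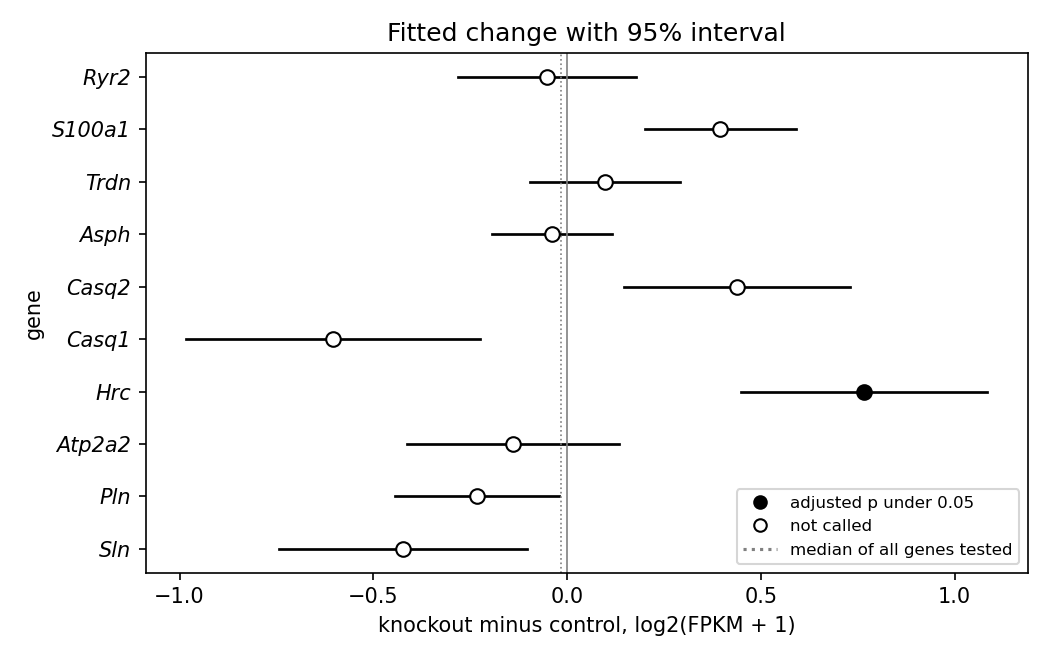
Fitted knockout minus control change on the log2(FPKM + 1) scale for each gene, with its 95% interval from the limma fit, the filled circle marking an adjusted p under 0.05 and the dotted line the median of all genes tested. Hrc is the filled circle, at 0.77, and the intervals of Ryr2, Trdn, Asph and Atp2a2 include 0.

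Among the calcium-binding proteins of the lumen, Hrc was higher, and the fitted values of the 2 calsequestrin genes, neither of them called, had opposite signs. Hrc (chr7:45335290-45338974, plus strand, no exon overlap with another gene) binds calcium in the lumen and interacts with triadin and with the SERCA pump. It stood at 12.7, 18.3 and 14.1 FPKM in control and at 23.0, 28.9 and 26.4 FPKM in knockout libraries, from 600 to 1438 recovered reads per library. The lowest knockout library lay above the highest control, and the means were 15.03 ± 2.93 and 26.1 ± 2.93 FPKM (SD, n = 3 each), a ratio of 1.74. Its log2 change was 0.77 (SE 0.14, interval 0.45 to 1.08, limma adjusted p = 0.0344), with all 3 knockout libraries higher.

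The Hrc call depended on which libraries were fitted. It was kept without control replicate 2 (adjusted p = 0.0219) and lost without control replicate 1 (0.0944), control replicate 3 (0.0703), knockout replicate 1 (0.0586), knockout replicate 2 (0.123) or knockout replicate 3 (0.118), and also with no filter on low values (0.111). Its size moved little in these fits, from 0.66 to 0.91. Relative to the mean of the cardiomyocyte markers the change was 0.78 (adjusted p = 0.0314), about that of the FPKM as deposited.

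Casq2 encodes the cardiac calsequestrin and Casq1 the isoform typical of fast skeletal muscle. Casq2 measured 41.6, 50.6 and 56.9 FPKM in control and 59.9, 68.3 and 74.1 FPKM in knockout libraries. The groups did not overlap, though only by the gap between control replicate 3 and knockout replicate 1. The ratio of means was 1.36, and the log2 change of 0.44 (SE 0.13, interval 0.15 to 0.73) did not pass the test (limma adjusted p = 0.138). With the replicate number as a block the adjusted p was 0.0354 and with voom 0.0497. Casq1 stood at 84.0, 79.6 and 56.4 FPKM in control and at 53.0, 49.6 and 40.1 FPKM in knockout libraries. Control replicate 3 was close to the knockout range, and the other controls were far above it. The log2 change of Casq1 was -0.60 (SE 0.16, interval -0.98 to -0.22), a ratio of 0.648, and it too missed the threshold (limma adjusted p = 0.124). It passed without control replicate 3 (log2 change -0.78, adjusted p = 0.0297), with the replicate block (0.0214) and with voom (0.0350). Both genes kept their direction under all 15 alternatives.

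The relative level of the 2 calsequestrin genes was compared within each library. The ratio of Casq1 to Casq2, which does not depend on how a library was scaled, was 2.02, 1.57 and 0.991 in control replicates 1 to 3 and 0.884, 0.726 and 0.541 in knockout replicates 1 to 3. Casq1 was thus the higher of the pair in 2 control libraries, level with Casq2 in control replicate 3 and the lower in every knockout library. The mean ratio was 1.53 ± 0.516 in control and 0.717 ± 0.172 in knockout libraries (SD, n = 3 each), a log2 difference of -1.06. A two-sided exact permutation test gave p = 0.1, the smallest that 3 against 3 libraries allow, and p = 0.3 after Benjamini-Hochberg adjustment over the 6 ratios compared. With 1 library left out the difference ran from -1.34 to -0.83.

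**Figure D3:**
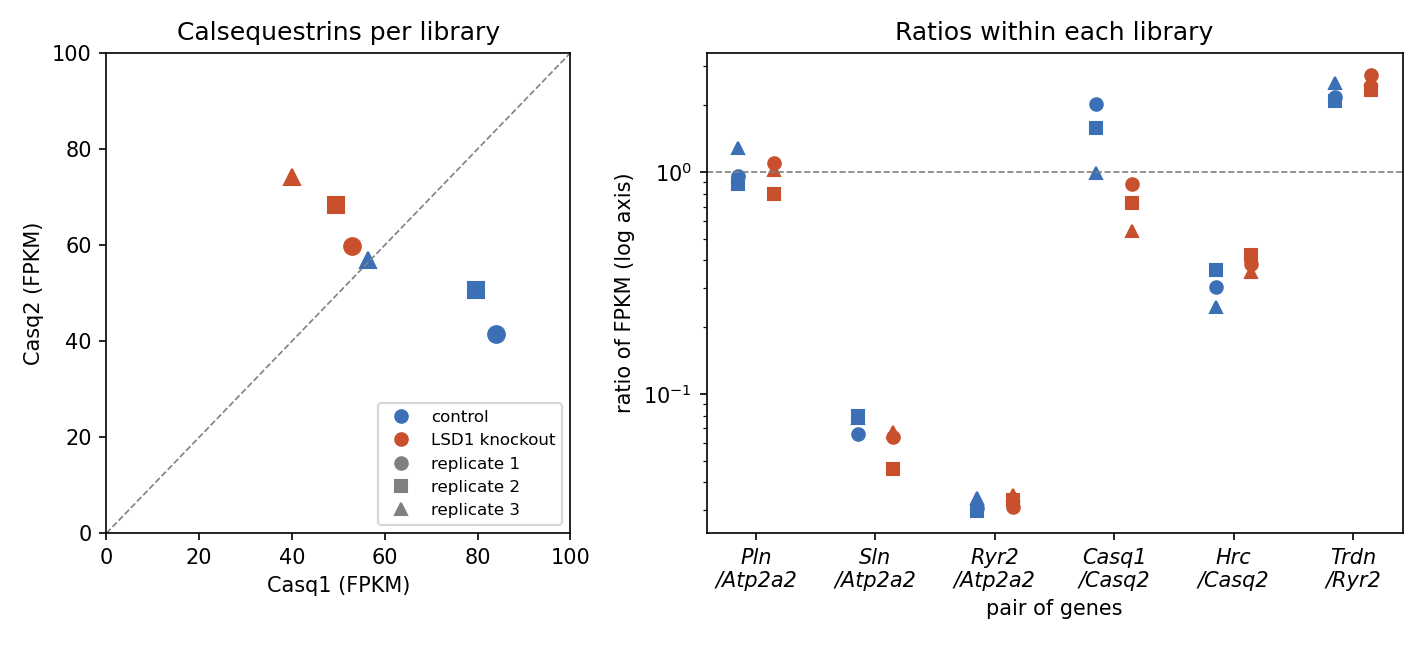
Left, Casq2 against Casq1 in FPKM for each library with the line of equal level; right, ratios of FPKM within each library on a log axis for 6 pairs of genes, with colours for group and markers for replicate as on the left. The 3 knockout libraries lie above the line of equal level on the left, and Casq1/Casq2 is the 1 pair on the right whose groups do not overlap.

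The fitted changes of the 3 uptake genes were below 0, and none passed the test. Atp2a2, the gene of the SERCA2 pump that refills the store, stood at 99.3, 119 and 89.6 FPKM in control and at 83.9, 102 and 91.3 FPKM in knockout libraries. These ranges overlapped, and the log2 change of -0.14 had an interval of -0.41 to 0.13 (adjusted p = 0.610). Pln encodes phospholamban, the peptide that lowers the calcium affinity of the pump until it is phosphorylated. Its level was 95.4, 105 and 115 FPKM in control and 92.0, 81.4 and 93.8 FPKM in knockout libraries, and the groups were separated by the small gap between control replicate 1 and knockout replicate 3. The log2 change of Pln was -0.23 (SE 0.09, interval -0.44 to -0.02, limma adjusted p = 0.270). Exons of Cep85l and Gm47644 cover 64.7% of the exon bases of Pln, so its reads cannot be told apart from theirs by position there. How shared reads were counted was not given, so the level of Pln, its rank and its ratio to Atp2a2 carry this limit. Cep85l itself was at 1.34 ± 0.211 and 1.25 ± 0.153 FPKM and Gm47644 at 0.208 ± 0.0786 and 0.219 ± 0.181 FPKM (SD, n = 3 each).

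Sln encodes sarcolipin, a pump inhibitor that is mainly atrial in the mouse heart. It measured 6.58, 9.47 and 6.96 FPKM in control and 5.37, 4.73 and 6.16 FPKM in knockout libraries, from 121 to 222 reads per library, the fewest of the 10 genes. Control replicate 2 stood well above the other controls, and the knockout range ended just below the lowest control. The log2 change was -0.42 (SE 0.14, interval -0.74 to -0.10, limma adjusted p = 0.187), and it was -0.28 without control replicate 2. The direction of Atp2a2, Pln and Sln was the same under all 15 alternatives, none of which gave a call.

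In the other 5 ratios the groups overlapped. Pln over Atp2a2 was 1.04 ± 0.211 in control and 0.973 ± 0.158 in knockout libraries (SD, n = 3 each; two-sided exact permutation p = 0.7). This ratio differed in the other direction without control replicate 3 or without knockout replicate 2. Sln over Atp2a2 was 0.0746 ± 0.00728 and 0.0592 ± 0.0114 (exact permutation p = 0.2), and Ryr2 over Atp2a2 0.0315 ± 0.00234 and 0.0331 ± 0.00211 (exact permutation p = 0.4). Hrc over Casq2 stood at 0.305 ± 0.0569 and 0.388 ± 0.0334, with knockout replicate 3 below control replicate 2 (exact permutation p = 0.2). Trdn over Ryr2 was 2.27 ± 0.231 and 2.57 ± 0.207 (exact permutation p = 0.2). After adjustment over the 6 ratios these 5 p-values were 0.3 to 0.7, and a p that misses the threshold does not show that the proportions are equal.

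On the length-scaled FPKM scale the levels of the 10 genes spanned from Ryr2 to S100a1. In control libraries the order of the means was S100a1, Pln, Atp2a2, Casq1, Casq2, Hrc, Sln, Asph, Trdn and Ryr2. Neighbours in that order with overlapping values were Pln and Atp2a2, Casq1 and Casq2, Sln and Asph, and Asph and Trdn. S100a1 and Atp2a2 overlapped there too, as did Sln and Trdn. In control replicate 2 Atp2a2 (118.6 FPKM) stood slightly above S100a1 (117.7 FPKM). In knockout libraries Atp2a2 stood before Pln, Casq2 before Casq1, and Sln moved behind Trdn and Asph. The pairs Atp2a2 and Pln, and Trdn and Asph, overlapped in that group. The length behind FPKM takes in all annotated exons of a gene, which for Ryr2 sum to 28790 bases against 16814 in its longest transcript. Set on the longest transcript, the control mean would be 5.49 FPKM for Ryr2, 15.01 for Trdn and 17.4 for Asph, and Pln (124) would be level with S100a1 (125), while those of S100a1, Casq1, Casq2, Hrc, Atp2a2 and Sln would move by 1.07-fold or less. Trdn and Asph would then come above Sln (7.67 FPKM) and near Hrc (16.0 FPKM) in control libraries.

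The relatives of Ryr2 and Atp2a2 were read beside them. Ryr1, the skeletal muscle receptor, had 0.0376 ± 0.0237 FPKM in control and 0.0329 ± 0.0129 in knockout libraries, and Ryr3 had 0.415 ± 0.15 and 0.442 ± 0.0842 FPKM (SD, n = 3 each). Atp2a1, the fast skeletal muscle pump, was at 0.109, 0.0485 and 0.209 FPKM in control and at 0.239, 0.385 and 0.225 FPKM in knockout libraries, from 3 to 26 reads, with 21.9% of its exon bases under other genes. Its groups did not overlap, but the level lay under the filter and was not tested. Atp2a3, the pump of non-muscle cells, stood at 1.76 ± 0.285 and 2.03 ± 0.327 FPKM (adjusted p = 0.636). The inositol trisphosphate receptor genes, whose products form the other family of release channels, were not called. In FPKM as deposited Itpr1 was at about the level of Ryr2, and it was not set on its longest transcript. Itpr1 had 3.24 ± 0.467 and 3.49 ± 0.304 FPKM, Itpr2 1.86 ± 0.589 and 2.34 ± 0.454 FPKM, and Itpr3 2.01 ± 0.215 and 2.13 ± 0.285 FPKM (SD, n = 3 each; adjusted p = 0.732, 0.530 and 0.840). Of the pump-regulating micropeptide genes, Mrln was listed at 0 in all 6 libraries and Strit1, the DWORF gene, had 1 read in 1 library.

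Other genes of calcium handling were taken from 7 lists with 106 symbols, of which 104 were in the table and 91 tested. Of these, 5 were called higher and 2 lower, against 1.91% and 0.466% of all genes tested. The median log2 change was 0.00 beside -0.01 for all genes. The lists, like the members, were chosen with earlier results of these data known. All 3 calls among 15 genes of release channels and junctions were higher. Tmem38b encodes TRIC-B, a potassium channel of the reticulum membrane that carries current opposite to calcium release, and measured 3.29, 3.85 and 3.89 FPKM in control and 6.08, 7.47 and 6.44 FPKM in knockout libraries. Every knockout library was far above every control, with a ratio of 1.81, a log2 change of 0.71 and an adjusted p of 0.0113. The call was kept in each of the 6 fits with 1 library left out and in 13 of the 15 alternatives. It was lost with no filter on low values and relative to the cardiomyocyte markers.

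Jsrp1, which encodes the junctional protein JP-45, rose from 4.24 ± 0.711 to 6.89 ± 0.692 FPKM, and Sypl2, the gene of the junctional membrane protein mitsugumin 29, from 1.13 ± 0.175 to 2.38 ± 0.483 FPKM (SD, n = 3 each; limma adjusted p = 0.0422 and 0.0426). Each was called in 1 of the 6 fits with 1 library left out. Both are known mainly from skeletal muscle. None of 5 tested genes in the list of other pumps and pump regulators was called, and the smallest p was that of Tmx1, at 25.8 ± 0.58 and 23.0 ± 1.5 FPKM (adjusted p = 0.305).

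Among 13 other luminal and reticulum calcium binders none was called. Srl, which encodes sarcalumenin, came closest, at 54.0, 68.5 and 57.4 FPKM in control and 70.2, 79.0 and 86.8 FPKM in knockout libraries, a ratio of 1.31 (adjusted p = 0.139). The groups were separated by a small gap between control replicate 2 and knockout replicate 1. Of 25 kinase, phosphatase and calmodulin genes 1 was higher and 1 lower. Hspb6, the gene of the small heat shock protein HSP20, known to restrain the phosphatase that acts on phospholamban, measured 15.6, 17.04 and 15.9 FPKM in control and 9.99, 9.44 and 10.2 FPKM in knockout libraries. It fell to 0.611 of control (log2 change -0.66, limma adjusted p = 0.00412), with every knockout library below every control, and was called under all 15 alternatives. Dmpk, the myotonic dystrophy kinase, rose 1.98-fold, from a mean of 2.82 to 5.58 FPKM (limma adjusted p = 0.0220), and was called in 2 of the 6 fits with 1 library left out.

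The remaining lists held 2 calls. Of 13 plasma membrane calcium transport genes, the channel subunit gene Cacna2d2 rose 1.65-fold and the T-type channel gene Cacna1h fell to 0.631 of control (limma adjusted p = 0.0316 and 0.0246), each called in 2 of the 6 fits with 1 library left out. None of 9 store-operated entry genes or 11 mitochondrial uptake genes was called. Among the mitochondrial genes the smallest p was that of Mcub, which encodes an inhibitory subunit of the uniporter, at 2.38 ± 0.522 and 4.06 ± 0.361 FPKM (SD, n = 3 each; limma adjusted p = 0.0573).

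**Figure D4:**
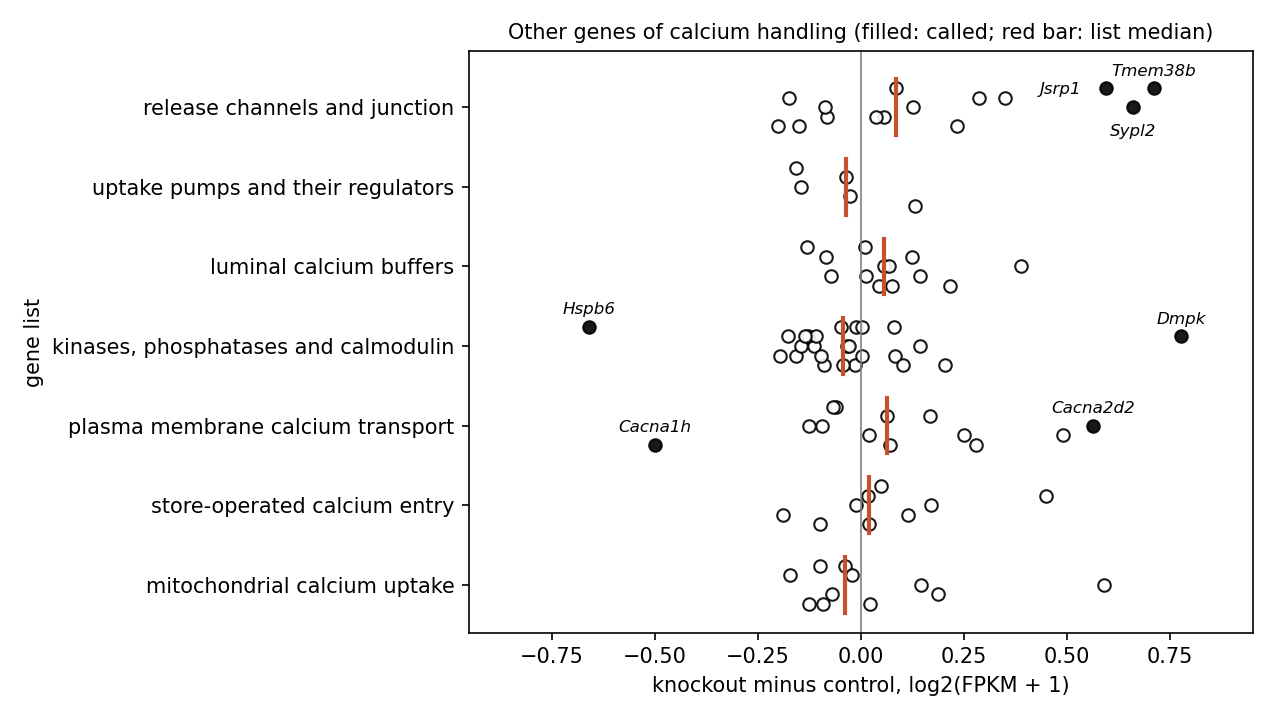
Knockout minus control change on the log2(FPKM + 1) scale for each tested gene of 7 lists of calcium handling, 1 circle per gene, with called genes filled and named and the red bar at the list median. Of the 7 filled circles, 5 lie to the right and 2, Hspb6 and Cacna1h, to the left.

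Of the 91 tested calcium genes, those whose log2 level followed Hrc most closely over the 6 libraries were the TRIC genes Tmem38a and Tmem38b and the sarcalumenin gene Srl, with Pearson r of 0.98, 0.96 and 0.95. These values describe 6 points that share library and genotype, and no test was made. Tmem38a encodes TRIC-A, the form of striated muscle. It had 31.4 ± 2.21 FPKM in control and 40.3 ± 3.44 FPKM in knockout libraries (SD, n = 3 each; adjusted p = 0.0917).

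The libraries carried 17898946 to 20076028 reads recovered from the FPKM steps. Kdm1a, at 27.5 ± 4.08 and 11.1 ± 0.555 FPKM (SD, n = 3 each), was called lower (limma adjusted p = 0.00274). Control replicate 3 stood apart on the second principal component, with 22.0% of the variance, and transcripts of the mitochondrial genome made up 9.03% of its FPKM, where the other libraries had 4.64% to 7.10%. The Y-linked gene Ddx3y had 0 reads in knockout replicate 3 and at least 13.05 FPKM in the others, and Xist was at 12.1 FPKM in that library, at 1.11 FPKM in knockout replicate 1 and near 0 elsewhere. Without knockout replicate 3 no member was called, and Hrc kept a log2 change of 0.76.

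Cardiomyocyte markers, 16 genes, had 0 calls and a median log2 change of 0.00, and their summed level ran from 14948 to 18964 FPKM in control and from 16178 to 17683 FPKM in knockout libraries. Actc1 and Myl2, the highest of them, measured 7217 ± 1459 and 7549 ± 539.8 FPKM and 3375 ± 247 and 3317 ± 97.4 FPKM (SD, n = 3 each). The lowest sum belonged to control replicate 3. In bulk tissue fewer cells of a type and less RNA per cell cannot be told apart.

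Skeletal muscle markers, of interest beside Casq1, gave 1 higher and 1 lower call among 7 tested of 12. Mylpf rose 4.13-fold and Tnni2 fell to 0.468 of control, while Ckm stood at 55.9 ± 5.5 and 55.6 ± 1.53 FPKM and Acta1 at 158 ± 52.1 and 88.4 ± 17 FPKM (SD, n = 3 each). Of the 4 myogenic factors in the list, Myod1 had at most 9 reads, Myf5 1 and Pax7 2 in any library. Myog, the fourth, was detected, at 0.0725, 0.376 and 1.35 FPKM in control and 0.666, 0.483 and 0.150 FPKM in knockout libraries, with 2 to 39 reads, and was highest in control replicate 3. The summed level, of which Acta1, Ckm and Tnni2 make up most, was 212 to 323 FPKM in control and 176 to 215 FPKM in knockout libraries. Weighted equally, the listed genes had a mean log2 level of 2.08 to 2.25 in control and 2.11 to 2.32 in knockout libraries, with overlap. Of 10 genes listed as atrial markers, of interest beside Sln, 2 were called higher and 0 lower. The 2 were Dkk3 (1.76-fold) and Kcnj3 (1.96-fold, with 31.1% of its exon bases under another gene). The highest genes of the list, Myl7 and Myl4, were at 2225 ± 373 and 2088 ± 117 FPKM and at 640 ± 32.5 and 618 ± 28.9 FPKM (SD, n = 3 each). The atrial sum, of which Myl7 makes up most, was 2635 to 3378 FPKM in control and 2658 to 2908 FPKM in knockout libraries. With each gene weighted equally, the mean log2 level of the list was 4.20 to 4.29 in control and 4.47 to 4.57 in knockout libraries, with no overlap. Of the 10 genes in this list 8 were fitted above 0, and 4 had every knockout library above every control and 0 below. Myl7 and Myl4 stood high in these ventricle libraries, and whether the list reports atrial cells was not tested.

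In the remaining marker lists no gene was called: 0 of 12 endothelial and endocardial, 0 of 9 epicardial, 0 of 11 mesenchymal and smooth muscle and 0 of 12 erythroid genes. Most of the endothelial and endocardial genes, 11 of 12, were nonetheless fitted above 0, with a median log2 change of 0.20 beside -0.01 for all genes tested. Medians were 0.02, 0.02 and 0.16 for the epicardial, mesenchymal and erythroid lists. Summed levels in control and knockout libraries were 205 to 289 and 251 to 313 FPKM for the endothelial list, 276 to 349 and 301 to 332 FPKM for the epicardial list, 1261 to 1585 and 1312 to 1401 FPKM for the mesenchymal list, and 8054 to 18026 and 7922 to 16540 FPKM for the erythroid list. The 2 highest genes of each were Plvap (52.0 and 75.7 FPKM) and Tie1 (30.1 and 36.8), Upk3b (86.0 and 88.3) and Krt19 (64.5 and 58.5), Acta2 (1021 and 1012) and Col1a1 (114 and 110), and Hbb-y (7426 and 7972) and Hba-a1 (2244 and 2587), as control and knockout mean FPKM. Acta2 makes up most of the mesenchymal sum, which was lowest in control replicate 3 (1261 FPKM). Acta2 itself was lowest there (752 FPKM), as was the cardiomyocyte marker Actc1 (5583 FPKM), and which cells carry Acta2 was not tested. With each gene weighted equally, the mean log2 level of the mesenchymal list was instead highest in control replicate 3. It was 4.37 to 4.73 in control and at most 4.53 in knockout libraries, with overlap. The part of the cell types of these 4 lists in the values of the members was not tested.

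**Figure D5:**
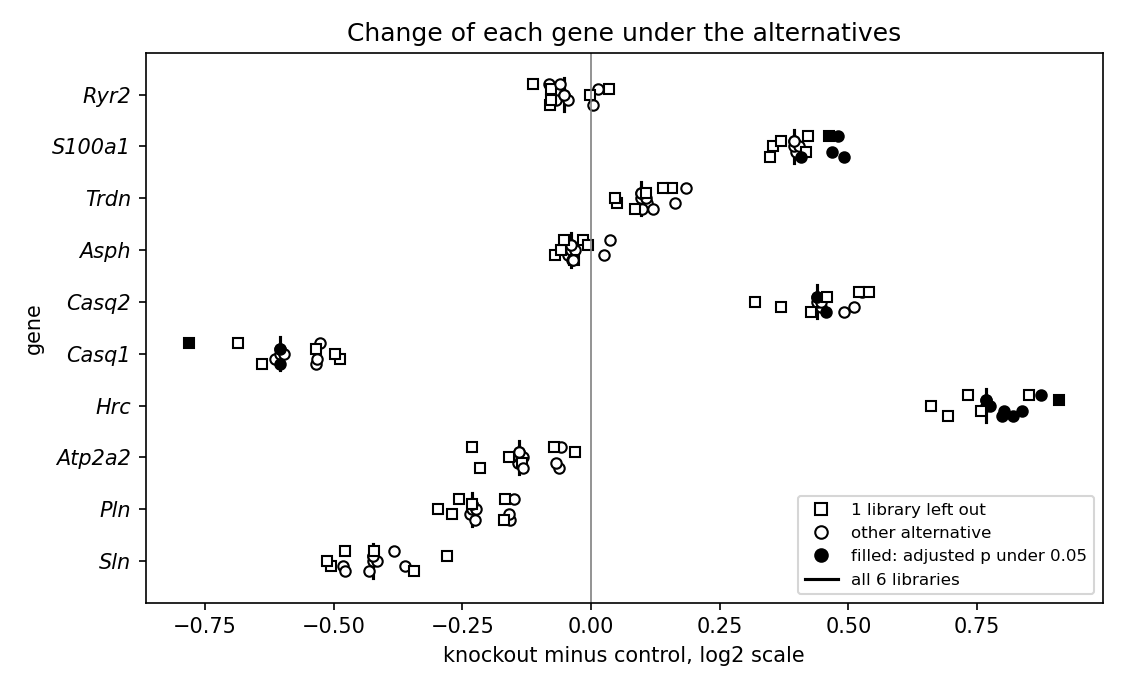
Knockout minus control change of each gene on the log2 scale under the alternatives, with squares for fits that leave out 1 library, circles for the other alternatives, filled symbols for an adjusted p under 0.05 and a vertical bar for the value with all 6 libraries. All symbols of Hrc lie between 0.66 and 0.91, those of Casq1 between -0.78 and -0.49, and those of Ryr2 and Asph on both sides of 0.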

How the data were processed

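RNA was sequenced from 3 control and 3 LSD1 knockout samples of E12.5 heart ventricles, assigned to groups by their descriptions. Total RNA came from TRIzol extraction, per the labels' protocols, and the NEBNext Ultra RNA library kit used keeps no strand. Build mm10 and the tools featureCounts 1.5.0-p3, HISAT2 2.0.5, fastp and CASAVA stand in the submitters' processing notes, while options and annotation release were not given in the sources used here. FPKM were what the authors deposited, for 54532 Ensembl IDs. Names, exon lengths and positions came from GENCODE M21 (GRCm38, the assembly mm10 denotes), which held 54495 of them; of several IDs with 1 symbol, the highest kept it. FPKM multiplied by exon length gave steps from which whole reads were recovered: 98.1% to 98.5% of values below 30 reads fell no further than 0.02 from a whole number. A gene of 1 kb with 3 reads stands at 0.155 to 0.169 FPKM.

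Genes averaging 0.5 FPKM or more were fitted as log2(FPKM + 1) by limma 3.58.1 under R 4.3.3 (two-sided, genotype alone in the model, variance trended on the mean). On that scale the change of a low gene is understated, and ratios of mean FPKM stand beside it. Ratios between members were tested over libraries by an exact permutation test in scipy 1.17.1. The limma fit was also run on simulated counts, with the same spread setting for every gene and no outlying library. That run does not measure how reliable the calls made here are. Members and lists were chosen with earlier results of these data known. Named were all members, their paralogs, each list's called genes or else the one with the smallest p, the 2 highest and any called genes of each marker list, and the 3 genes most correlated with the member of smallest adjusted p. Alternatives changed the pseudocount, filter, scaling, block, libraries and weighting. Strit1 and Stimate were matched by RefSeq synonyms, and 2 listed symbols were not matched. A gene that the naming rule names is not reported here.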

Additional observations from a re-analysis of the deposited data

How the results depend on the processing

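With all 6 libraries 270 genes were called higher and 66 lower, 1 member and 0 members, and 5 and 2 other calcium genes. With no filter the 3 pairs of counts were 110 and 12, 0 and 0, and 0 and 1. At a mean of 5 FPKM, with 7420 genes tested, 132 genes were higher, with 2 and 1 other calcium genes. Sypl2, Dmpk, Cacna2d2 and Cacna1h lay under that filter and were not tested there. Relative to cardiomyocyte markers the counts were 122 and 20 genes and 0 and 1 other calcium genes. Rescaling to TPM gave 40 lower genes, and 2 members were higher after that, after quantile normalization and after rescaling without haemoglobin and mitochondrial genes. Limma with voom weights on recovered reads, chosen after seeing the data, gave 419 higher genes, 3 higher and 1 lower member and 8 higher calcium genes. With 1 library left out there were 111 to 273 higher and 23 to 108 lower genes, 0 to 1 higher and 0 to 1 lower members, and 1 to 5 higher and 1 to 2 lower calcium genes; such fits have fewer samples. Without control replicate 3 the higher member was S100a1 and the lower one Casq1. The cause of the other shifts was not tested.

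The change of Ryr2 turned to 0.0128 after rescaling to TPM, 0.00307 without haemoglobin and mitochondrial genes and 0.0344 without knockout replicate 1 (-0.11 to 0.0344 with 1 library left out), and that of Asph to 0.0377 and 0.0251 under those 2 rescalings. The log2 difference of Pln over Atp2a2 was -0.09 with all libraries and ran from -0.20 to 0.0659 with 1 left out, above 0 without control replicate 3 (0.0659) or knockout replicate 2 (0.0464). The other 8 members and 5 ratios kept their direction in each alternative run. At a mean of 5 FPKM Ryr2 was not tested.

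With the replicate number as a block 2 members were higher (Hrc and Casq2) and 1 lower (Casq1), and 2 and 1 other calcium genes were called. Control and knockout libraries of the same number share only that number: their deviations from the group means had correlations of -0.00210, 0.14 and 0.164, and not every library correlated best with its own number. The 2 planned count tests on recovered reads were not run, since the deposited unit is FPKM. Limma with voom weights was fitted to those recovered reads in their place, and the same limit holds for it. At 121 to 222 reads Sln has the widest counting error of the members.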
